A study of Mus musculus with 12 samples.

Results

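The repeat names described here were those of LINE-1 retrotransposons that are old enough to be shared widely among mammals. They were chosen by class, family and name, with earlier results of these data known. The rule took every row of class LINE and family L1 whose name begins with L1M (other than the mouse names that begin with L1Md), L1P or HAL1. The rule found 91 names among the 18538 repeat names counted in each library, out of 150 names of the L1 family and 201 of the LINE class.

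LINE-1 elements are retrotransposons that encode their own reverse transcriptase and copy themselves through an RNA that starts at a promoter in the element. The names here belong to lineages that stopped copying long ago in mouse, so their copies are truncated and diverged fragments, many of them inside introns and between genes, and reads from such copies can come from transcripts that start elsewhere. The letters after L1M run by convention from the more recent L1MA, through L1MB, L1MC and L1MD, to the oldest L1ME. The prefix L1P was coined for primate lineages, and HAL1 elements are defective relatives of LINE-1 that lack the reverse transcriptase part. Young mouse LINE-1, the L1Md names, is by contrast known to be transcribed in the early embryo.

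Total RNA had been sequenced from C57BL/6 preimplantation embryos at the 2-cell stage, 1.5 days after fertilization, in 12 libraries, 6 per group. KO embryos, genotype m-/p-, came from Kdm4a knockout oocytes and Kdm4a knockout sperm, and so lacked both the maternal and the paternal allele. WT embryos, genotype m+/p-, came from wild-type oocytes and the same kind of sperm, so both groups lacked a working paternal allele. Kdm4a encodes a histone demethylase that acts on methylated lysines of histone H3. The labels do not say how many embryos a library holds, how many females gave the oocytes, or whether replicates came from separate matings, so the p-values measure the spread between these libraries. The counts are relative, so fewer cells or less RNA per cell cannot be told apart from a shift in the makeup of the RNA.

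Total counts over all repeats ran from 7952526 (KO replicate 5) to 16493286 in KO libraries and from 10946392 to 18902360 in WT libraries. No gene was counted, so the level of Kdm4a gave no check of the labels. MERVL-int, the internal part of the retrovirus that marks the 2-cell stage, was abundant in every library, at 19686 to 39592 normalised CPM in KO and 45234 to 91277 normalised CPM in WT. Normalised CPM are counts scaled to a common library size with edgeR's TMM factors, which set the typical repeat to the same level in every library. WT replicate 2 and KO replicate 5 lay apart from the others on the first and the second principal component of all tested repeats (21.7% and 12.2% of the variance), and both were kept.

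The fossil names took 167581 to 358007 counts per library in KO and 138418 to 291297 in WT. All 91 passed the filter on low counts, which kept 3312 repeat names in all. Coverage was uneven. The 8 most abundant names held 40.5% of the summed normalised CPM of the 91, and 12 names were enough to pass 50% of it. The 15 names with a mean under 10 normalised CPM held 0.501%. The rarest, L1M2a1 and L1M6B, had 0 counts in 3 and 1 of the 12 libraries, all of them WT, and at most 26 and 30 counts in any library. These counts grow with the genomic length carrying each name, which was not used here, so the order of names by counts is not an order of expression per copy.

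By name group, the 25 names that begin with L1M followed by a number or nothing (here "numbered L1M") had the most counts, with 25.2% ± 0.661 of the counts of the 91 names in KO and 24.2% ± 0.493 in WT (SD, n = 6 each). The 9 L1MA names held 20.1% ± 1.41 in KO and 21.1% ± 0.584 in WT. The 7 L1MB names held 16.5% ± 0.753 in KO and 16.8% ± 0.442 in WT, the 11 L1MC names 15.2% ± 0.463 in KO and 15.2% ± 0.523 in WT, and the 27 L1ME names 14.5% ± 0.187 in KO and 14.3% ± 0.452 in WT. The 6 L1MD names held 6.45% ± 0.226 in KO and 6.21% ± 0.198 in WT. The 4 HAL1 names stood at 1.96% ± 0.0980 in KO and 1.95% ± 0.166 in WT, and the 2 L1P names at 0.156% ± 0.0199 in KO and 0.147% ± 0.0262 in WT. The ranges of the 2 genotypes overlapped in each of these 8 shares.

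The comparison of genotypes asked how RNA over these old elements differed between embryos from Kdm4a knockout oocytes and embryos from wild-type oocytes. The embryo's own maternal allele differed along with the oocyte. No single name passed the test over all repeats, while most of the 91 names had slightly higher values in KO. The log2 fold change, KO over WT (log2 FC), was above 0 for 77 and below 0 for 14 of the 91, with a median of 0.17, against 0.01 over all 3312 tested repeats, of which 51.2% were positive. With no filter on low counts, which brought in many rows of few counts (10386 in all), the medians were 0.19 for the 91 names and 0.17 for all rows, a distance of 0.020 in place of 0.16. A log2 value of 0.17 is a small change, and the sum of the 91 names was 17945 ± 922 normalised CPM in KO and 16049 ± 477 in WT (SD, n = 6 each).

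With the quasi-likelihood test of edgeR and a Benjamini-Hochberg threshold of 0.05 over all tested repeats, 0 of the 91 were called in either direction, against 1.42% of all tested repeats (0.151% higher and 1.27% lower). At an unadjusted p under 0.05, 30 names were higher and 0 lower, against 5.5% higher and 7.91% lower of all tested repeats. Of the 3312 tested repeats, 2085 were simple repeats, and of the 1227 others 8.48% were higher and 14.6% lower at that p. The 30 had a log2 FC between 0.17 and 0.97 and adjusted p (edgeR) of 0.0510 to 0.366, so each of them failed the correction. By DESeq2 there were 7 higher and 0 lower calls among the 91, against 1.27% higher and 3.83% lower of all tested repeats. By limma-voom (with quality weights) there were 1 higher and 0 lower, against 0.242% higher and 1.87% lower. With the LTR class left out of the table, the names higher at an unadjusted p under 0.05 numbered 18 in place of 30, against 4.31% of the 2666 repeats then tested. In 34 of the 91 names, all 6 KO libraries lay above the WT median, against 9.84% of all tested repeats.

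The plot of fold changes by name group shows the values by lineage. Positive values were found for 8 of 9 L1MA, 7 of 7 L1MB, 9 of 11 L1MC, 6 of 6 L1MD, 24 of 27 L1ME, 18 of 25 numbered L1M, 2 of 2 L1P and 3 of 4 HAL1 names. The group medians of the log2 fold change were 0.20, 0.11, 0.17, 0.21, 0.17, 0.19, 0.16 and 0.13 in the same order, and so did not follow the order of age from L1MA to L1ME. No test was made between name groups.

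**Figure D1:**
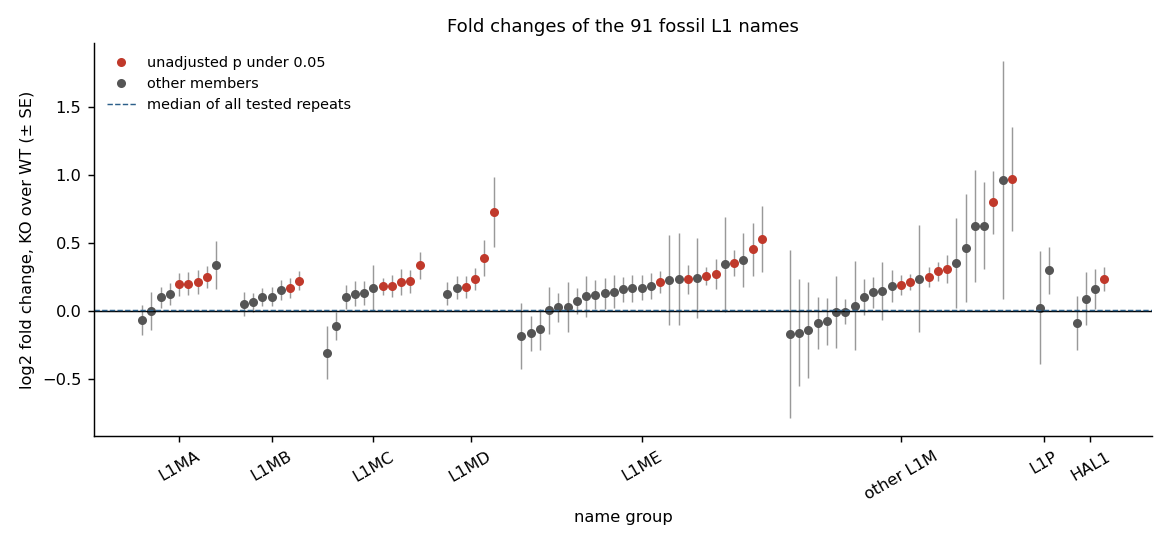
Log2 fold change (KO over WT, edgeR, vertical axis, bars ± 1 standard error) of each of the 91 fossil LINE-1 names, sorted within the name groups on the horizontal axis. The 30 names with an unadjusted p under 0.05 are red and all lie above 0, 14 names lie below 0, and the dashed line marks the median of all tested repeats (0.01).

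The sum of the 91 names was higher in every KO library than in any WT library. It was lowest at 17023, had a median of 17718 and was highest at 19560 normalised CPM in KO, against 15250, 16062 and 16573 in WT. KO replicate 5, the shallowest library, had the highest sum, and it was also the library with the highest value for 34 of the 91 names. Without it, the mean log2 difference of the sum was 0.13, against 0.16 with all libraries. A sum over names chosen with earlier results known was given no p-value.

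Measured as a share of all counts, without TMM scaling, the 91 names held 1.73% to 2.19% (median 2.05%) in KO and 1.26% to 1.62% (median 1.43%) in WT, again without overlap. Shares depend on what else is in the library. LTR retrotransposons took 44.2% to 51.7% of the counts in KO and 54.1% to 59.6% in WT, and the TMM factors were 0.978 to 1.26 in KO and 0.767 to 0.977 in WT, neither overlapping between the groups. The part of these differences in the result was not tested. Among counts outside the LTR class, the 91 names held 3.83% ± 0.208 in KO and 3.27% ± 0.151 in WT (SD, n = 6 each), with every KO library above every WT library. Ribosomal RNA repeats took 4.79% to 6.94% of the counts in KO and 5.17% to 6.26% in WT.

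The size of the fold changes depended on the scaling of the libraries. Scaling by total counts, in place of TMM, gave a median log2 fold change of 0.48 for the 91 names and of 0.32 for all tested repeats. All 91 names were then positive, against 81.2% of all tested repeats, and 49 were called higher and 0 lower (edgeR, adjusted p), against 10.8% of all tested repeats called higher and 0.996% lower. A change of scaling moves all repeats by nearly the same amount, so the distance between both medians (0.16 under each of the 4 scalings) could hardly change with it. From here on values are under TMM, and so relative to the typical repeat. The plot of medians by scaling shows both rising together under total counts.

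**Figure D2:**
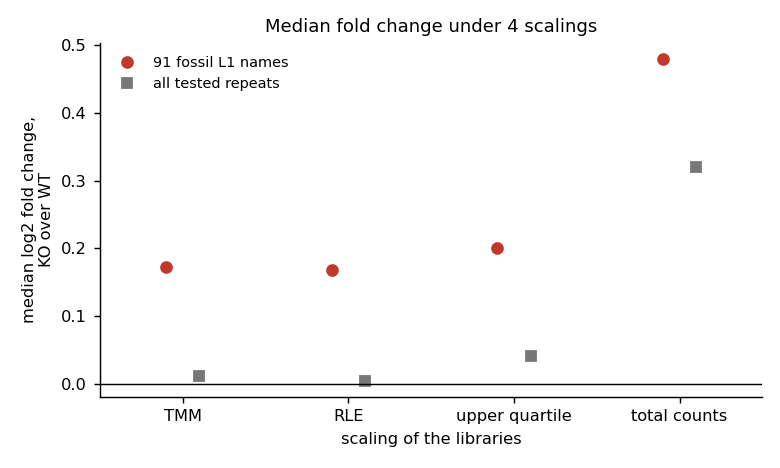
Median log2 fold change (KO over WT) of the 91 fossil LINE-1 names (circles) and of all tested repeats (squares) under 4 scalings of the libraries. Under TMM the medians are 0.17 and 0.01, and under total counts 0.48 and 0.32.

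The numbered L1M names are the general L1M lineages without an age letter, and they contained the most abundant of all 91, L1M2. Its lowest, median and highest values were 1253, 1361 and 1461 normalised CPM in KO, against 1104, 1161 and 1233 in WT. The groups did not overlap. The log2 FC was 0.21 ± 0.06 (SE, edgeR adjusted p = 0.0874). It rested on 9271 to 28225 counts per library. L1M2 was called with DESeq2 (adjusted p = 0.0399), with transposon rows alone (edgeR, 0.0380) and under total-count scaling (edgeR, 0.00753). L1M2a, L1MC5a and L1MEg, described below, were called under the same 3 settings.

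L1M5 had the smallest p of the 91. Its lowest, median and highest values were 721, 807 and 875 normalised CPM in KO, against 587, 675 and 690 in WT, again without overlap. The log2 FC was 0.29 ± 0.07 (SE), and the edgeR adjusted p of 0.0510 lay just above the threshold. The call was made with DESeq2 (adjusted p = 0.0124), with robust edgeR (0.0440), under upper quartile scaling (0.0309), with transposon rows alone (0.0118), under total-count scaling (0.00753), and without KO replicate 2 (0.0396) or KO replicate 4 (0.0467). It was not made under the other settings run, among them limma-voom, RLE scaling, no filter and the removal of any of the 10 other libraries.

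L1M4 stood at 846, 960 and 1088 normalised CPM (lowest, median and highest) in KO, against 776, 820 and 869 in WT, and 1 KO library lay within the WT range. Its log2 FC was 0.25 ± 0.07 (SE, edgeR adjusted p = 0.0874). L1M3 stood at 516, 531 and 567 in KO, against 397, 469 and 522 in WT, a log2 FC of 0.19 ± 0.07 (SE, edgeR adjusted p = 0.241). Its KO libraries lay close together and the WT libraries were spread more widely. L1M4c had a log2 FC of 0.31 ± 0.10 (SE, edgeR adjusted p = 0.154), from a mean of 228 normalised CPM in KO and 183 in WT.

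**Figure D3:**
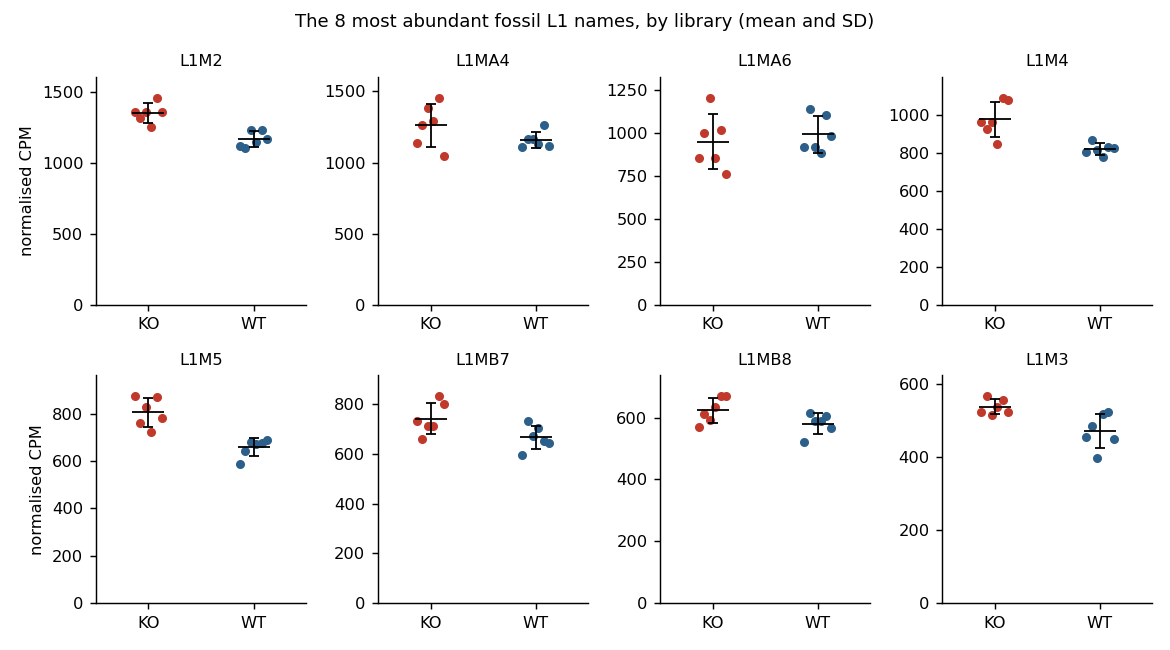
Normalised CPM (vertical axes, starting at 0) in each KO and WT library for the 8 fossil LINE-1 names with the most counts, with the mean and SD of 6 libraries. L1M2 and L1M5 are the panels in which the KO and WT points do not overlap, and L1MA6 is the panel with the lower mean in KO.

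L1MA, the most recent L1M lineage, held both names, among the 8 most abundant, whose KO libraries spanned the whole WT range. L1MA4, its most abundant name, stood at 1044, 1277 and 1455 normalised CPM (lowest, median and highest) in KO, against 1108, 1146 and 1266 in WT. The log2 FC was 0.12 ± 0.08 (SE, edgeR adjusted p = 0.563).

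L1MA6 was the one name among the 8 most abundant with a negative log2 FC, -0.06 ± 0.11 (SE, 95% interval -0.30 to 0.17, edgeR adjusted p = 0.885), which turned to 0.24 under total-count scaling (edgeR adjusted p = 0.128). Its values were 761, 929 and 1205 in KO, against 881, 952 and 1138 in WT, and KO held both the lowest and the highest library. L1MA5 averaged 337 ± 31.1 normalised CPM in KO and 283 ± 25.5 in WT (SD, n = 6 each), a log2 FC of 0.25 (edgeR adjusted p = 0.154). L1MA7, chosen after its values were seen because its groups did not overlap, stood at 136 to 147 in KO and 96.4 to 134 in WT, a log2 FC of 0.21 (edgeR adjusted p = 0.298).

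L1MB, the next lineage in age, had small positive values throughout. L1MB7 stood at 661, 725 and 833 normalised CPM (lowest, median and highest) in KO, against 597, 662 and 731 in WT, a log2 FC of 0.15 ± 0.07 (SE, edgeR adjusted p = 0.383). L1MB8 stood at 570, 622 and 670 in KO, against 520, 590 and 615 in WT, a log2 FC of 0.10 ± 0.07 (SE, edgeR adjusted p = 0.561). Both ranges overlapped. L1MB2 averaged 240 ± 13.9 in KO and 206 ± 13.3 in WT (SD, n = 6 each), a log2 FC of 0.22 (edgeR adjusted p = 0.122), with all 6 KO libraries above the WT median.

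L1MC and L1MD are intermediate lineages. L1MC1, the most abundant L1MC name, averaged 505 ± 54.9 normalised CPM in KO and 443 ± 25.9 in WT (SD, n = 6 each), a log2 FC of 0.19 (edgeR adjusted p = 0.308), and only 4 of 6 KO libraries lay above the WT median. L1MC4 averaged 460 ± 18.7 in KO and 404 ± 24.0 in WT, and L1MC3 332 ± 21.8 in KO and 285 ± 32.5 in WT. The log2 FC was 0.19 for L1MC4 and 0.22 for L1MC3 (edgeR, adjusted p = 0.164 and 0.233), and in each of them all 6 KO libraries lay above the WT median. L1MC5a had a log2 FC of 0.34 ± 0.10 (SE, edgeR adjusted p = 0.108).

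L1MD, the most abundant name of its group, averaged 365 ± 21.8 normalised CPM in KO and 334 ± 41.5 in WT (SD, n = 6 each), a log2 FC of 0.13 (edgeR adjusted p = 0.563). L1MD2 had KO libraries close together, with 219 to 235 in KO and 170 to 231 in WT, and a log2 FC of 0.24 (edgeR adjusted p = 0.167). L1MDa was uneven in KO, where 2 of the 6 libraries lay at or below the WT maximum. Its values ran from 134 to 239 in KO and from 135 to 154 in WT, with a log2 FC of 0.39 ± 0.13 (SE, edgeR adjusted p = 0.162). Without KO replicate 2, which held the lowest KO value, it was called (log2 FC 0.47, edgeR adjusted p = 0.0433). L1MDa was also called with transposon rows alone (edgeR adjusted p = 0.0432) and under total-count scaling (0.0141).

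L1ME, the oldest lineage, contained another name whose groups did not overlap. L1ME1 stood at 385, 393 and 458 normalised CPM (lowest, median and highest) in KO, against 325, 334 and 378 in WT. The log2 FC was 0.26 ± 0.07 (SE, edgeR adjusted p = 0.0691), and it was called by limma-voom (0.0284), DESeq2 (0.0407), under upper quartile scaling (0.0446), with transposon rows alone (0.0209) and under total-count scaling (0.00739). L1MEg averaged 124 ± 12.9 in KO and 96.8 ± 10.1 in WT (SD, n = 6 each), a log2 FC of 0.35 (edgeR adjusted p = 0.0760), and L1MEc 300.1 ± 28.1 in KO and 258 ± 21.6 in WT, a log2 FC of 0.22 (edgeR adjusted p = 0.226).

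HAL1 stood at 193, 230.4 and 260.3 normalised CPM (lowest, median and highest) in KO, against 171, 188 and 222 in WT, a log2 FC of 0.23 ± 0.09 (SE, edgeR adjusted p = 0.213). L1PB4, the more abundant of both L1P names, had a median of 21.6 in KO and 16.9 in WT and a log2 FC of 0.30 ± 0.17 (SE, edgeR adjusted p = 0.493). The ranges overlapped for both.

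The 4 names whose groups did not overlap, L1M2, L1M5, L1ME1 and L1MA7, were all higher in KO. They made up 4.40% of the 91, against 0.725% of all tested repeats with every KO library above every WT library. All 4 averaged at least 100 normalised CPM. At that level the shares were 8.51% of the 47 fossil names and 2.34% of all 555 tested repeats. Names with every KO library above every WT library were also found among the other old repeats described below. None of the 91 had every KO library below every WT library, which was found for 1.39% of all tested repeats.

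The largest fold changes were found among the rarer names, where the error was larger too. Among names averaging at least 10 normalised CPM, the largest were those of L1M2a, L1MDb and L1ME3C. L1M2a had a median of 18.9 in KO and 11.2 in WT and a log2 FC of 0.80 (95% interval 0.31 to 1.30, edgeR adjusted p = 0.100). L1MDb had a median of 26.7 in KO and 17.2 in WT and a log2 FC of 0.73 (95% interval 0.17 to 1.28, edgeR adjusted p = 0.186). L1ME3C had a median of 12.7 in KO and 8.87 in WT and a log2 FC of 0.53 (95% interval 0.01 to 1.05, edgeR adjusted p = 0.363). In all 3, WT replicate 2 was the lowest library, and without it the log2 FC was 0.68, 0.58 and 0.42.

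The most negative values were those of L1MCc, L1MEg2 and L1MEi, with a log2 FC of -0.31, -0.18 and -0.16 in turn (edgeR, adjusted p = 0.551, 0.843 and 0.660), which turned to 0.04, 0.13 and 0.17 under total-count scaling. L1MCc stood at 16.4 to 23.2 normalised CPM in KO and at 16.1 to 38.3 in WT. Its highest value came from WT replicate 2, and without that library its log2 FC was -0.12. The groups overlapped in all 3 names.

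The precision of the comparison rose with the level. For the 47 names averaging at least 100 normalised CPM, the median standard error of the log2 FC was 0.08, 44 were positive, against 47.0% of all tested repeats of that level, and 25 had an unadjusted p under 0.05, against 10.3% of all 555 tested repeats of that level that were higher at that p. Their 95% intervals lay between -0.33 and 0.67, which leaves out a doubling or a halving for each of them. The 29 names with 10 to 100 normalised CPM had a median standard error of 0.18, with 20 positive, and the 15 rarer names one of 0.38, with 13 positive. Within a group, the coefficient of variation between libraries had a median of 13.8% in KO and 13.9% in WT over the 91 names.

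**Figure D4:**
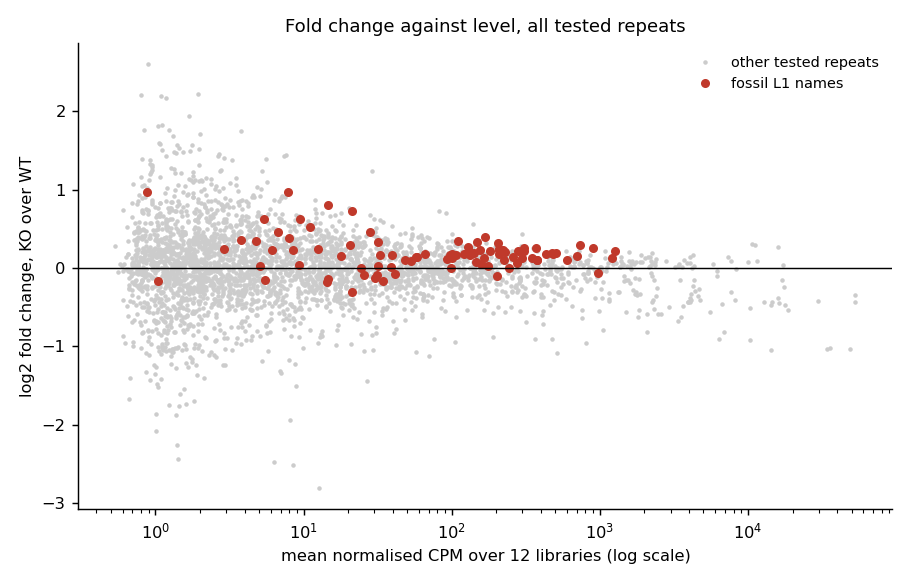
Log2 fold change (KO over WT, vertical axis) against the mean normalised CPM over 12 libraries (horizontal axis, log scale) for all 3312 tested repeats in grey and the 91 fossil LINE-1 names in red. Of the 47 red points at or above 100 normalised CPM, 44 lie above 0.

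The other LINE-1 names in the same libraries had medians close to 0, and the difference from the fossil names was not tested. The 25 L1Md names had a median log2 FC of 0.01, with 14 positive, 0 called higher and 2 called lower. The 33 tested names of rodent lineages (Lx and relatives) had a median of -0.01, with 15 positive, 0 called higher and 1 called lower. At an unadjusted p under 0.05 (edgeR), 4 L1Md names (16%) and 7 rodent names (21.2%) were lower and 0 higher. Of all tested repeats, 7.91% were lower and 5.5% higher at that p. All tested L1Md and rodent names averaged at least 100 normalised CPM. Of the 555 tested repeats of that level, 24.5% were lower and 10.3% higher at that p. Summed, the L1Md names stood at 37079 ± 7086 normalised CPM in KO and 46200 ± 4474 in WT (SD, n = 6 each), and the rodent names at 45343 ± 5698 in KO and 48755 ± 2514 in WT. Under total-count scaling both medians were 0.29, below the 0.32 of all tested repeats. Then 2 of 25 L1Md names were called higher and 3 lower, and 7 of 33 rodent names higher and 1 lower. Of all tested repeats, 10.8% were called higher and 0.996% lower in that setting.

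A ratio within a library needs no scaling. The log2 ratio of fossil counts to L1Md counts was -1.29 to -0.69 (median -1.13) in KO and -1.66 to -1.27 (median -1.56) in WT, and 5 of 6 KO libraries lay above every WT library. KO replicates 1 and 6 had the highest ratios (-0.70 and -0.69), and they were also the libraries with the least MERVL-int (19686 and 23149 normalised CPM). The log2 ratio to the rodent names was -1.50 to -1.13 in KO and -1.74 to -1.53 in WT, without overlap. As a share of all counts of the L1 family, the fossil names held 18.1% ± 2.08 in KO and 14.5% ± 0.936 in WT (SD, n = 6 each).

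Other old repeats were set beside them, since these also lie in diverged copies across the genome. MIR, an old tRNA-derived SINE, kept nearly the same ratio to fossil LINE-1 in both genotypes. Its 5 names all had positive log2 FCs (median 0.10, 0 called). Summed, the MIR names stood at 6517 ± 389 normalised CPM in KO and 5952 ± 269 in WT (SD, n = 6 each). All 6 KO sums lay above the WT median, and the ranges overlapped. The log2 ratio of fossil LINE-1 to MIR counts was 1.32 to 1.57 (mean 1.46 ± 0.104) in KO and 1.35 to 1.51 (mean 1.43 ± 0.0624) in WT (SD, n = 6 each), so both ranges lay nearly on top of each other, with 3 of 6 KO libraries above the WT median.

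The MLT1 names, an old lineage of LTR elements, had a median log2 FC of 0.17 with 39 of 53 positive, close to that of the fossil LINE-1 names. Their sum nevertheless stood at 7017 ± 328 normalised CPM in KO and 7463 ± 489 in WT (SD, n = 6 each), so the median name and the sum differed in sign. L2 and CR1, older LINE families, had a median of 0.06 with 19 of 31 positive, and a sum of 7482 ± 431 in KO and 7821 ± 564 in WT. At an unadjusted p under 0.05 (edgeR), 6 MLT1 names (11.3%) were higher and 2 lower (3.77%). At that p, 4 L2 and CR1 names (12.9%) were higher and 2 lower (6.45%), and 1 MIR name (20%) was higher and 0 lower. The shares were 33% higher and 0% lower for the fossil names, and 5.5% and 7.91% for all tested repeats. The log2 ratio of fossil LINE-1 counts was 1.21 to 1.47 in KO and 0.97 to 1.20 in WT to MLT1, and 1.20 to 1.35 in KO and 0.90 to 1.19 in WT to L2 and CR1, without overlap in either. Every KO library lay above every WT library for 3 L2 and CR1 names (9.68%), 1 MIR name (20%) and 1 MLT1 name (1.89%). The share was 4.4% of the fossil names and 0.725% of all tested repeats. Under total-count scaling the median log2 FC was 0.49 for MLT1, 0.43 for MIR and 0.37 for L2 and CR1. That of the fossil names was 0.48. Then 17 of 53 MLT1, 4 of 5 MIR and 8 of 31 L2 and CR1 names were called higher and 0 lower (edgeR, adjusted p). Of all tested repeats, 10.8% were called higher and 0.996% lower in that setting. No test was made of the differences between these groups of names, and the plot of summed levels shows them by library.

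**Figure D5:**
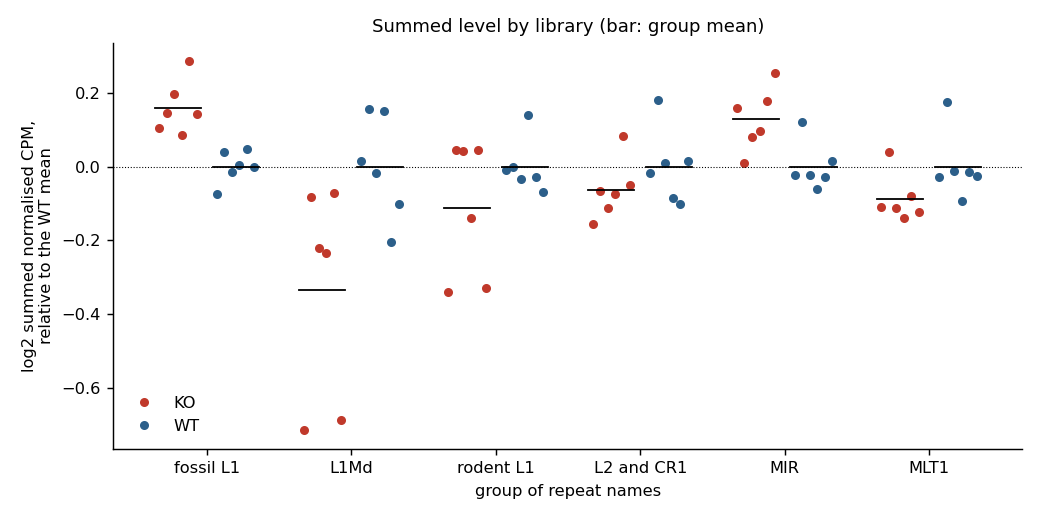
Summed normalised CPM of each group of repeat names in every KO and WT library, as log2 relative to the WT mean of that group (vertical axis), with group means as bars. For fossil LINE-1 every KO point lies above every WT point, with sums of 17023 to 19560 in KO and 15250 to 16573 in WT. The KO mean of MIR also lies above 0, while the KO means of L1Md, rodent L1, L2 and CR1, and MLT1 lie below 0.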

How the data were processed

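Total RNA of 12 libraries was analysed from counts per repeat name, 1 deposited file per library. Replicate numbers are those of the sample titles, and the numbers in the deposited file names run the opposite way. The deposited values are estimated counts, not scaled between libraries. All were whole numbers (0 files held another value). The deposited file names speak of unique reads and of fractions. The submitters' processing notes name mm10, Trimmomatic 0.32 and edgeR without a role. The sources used here do not give the aligner, the repeat annotation, the counting program or the use of strand, so reads of related names may have been split between them. Consensus sequences and genomic positions of the repeats were not used here.

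The main test was that of edgeR 4.0.16 (R 4.3.3) over the whole table (filterByExpr with the group, TMM, quasi-likelihood F test, genotype as the only term, Benjamini-Hochberg, threshold 0.05), with limma 3.58.1 (voom) and DESeq2 1.42.0 as alternatives. Standard errors came from the F statistic, and 95% intervals from the t distribution with the degrees of freedom of the fit. The test was checked on simulated counts with changes larger than the typical change of these names, so the check does not cover changes this small. Within groups, 30 library pairs had a chi-square per degree of freedom of 25.0 to 144, so none agreed within sampling noise. Members and lists were chosen with earlier results of these data known. Named members were the 8 most abundant, the most abundant of each name group, the 3 highest and 3 lowest fold changes at a mean of at least 10 normalised CPM, and 10 more of the smallest p, 29 in all.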

Additional observations from a re-analysis of the deposited data

Results flagged for a closer look

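Of 182 groups of 6 libraries over the 91 names, 10 had 1 library set apart by more than Dixon's 95% critical value, where chance gives about 1 in 20. Among the named members, L1ME1 had its highest WT value in WT replicate 2 (378 normalised CPM, next 338), and L1MEi likewise (47.1, next 35.6). L1M4c was highest in WT replicate 5 (236, next 185) and L1PB4 in WT replicate 4 (27.5, next 17.7). A further 52 groups of 6 libraries, over sums, shares and ratios of the fossil counts, gave 1 such case. In it, the HAL1 share of the fossil counts was lowest in KO replicate 1 (1.77%, next 1.97%).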

How the results depend on the processing

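The number of names called higher was 0 in the test reported, 49 under total-count scaling (against 10.8% of all tested repeats), 11 with transposon rows alone (which leaves fewer rows to adjust over, 2.82%), 7 with DESeq2 (1.27%), 2 under upper quartile scaling (0.211%), and 1 each with limma-voom (0.242%) and with robust edgeR (0.181%). It was 0 to 2 when single libraries were left out. It was 2 without KO replicate 2 (against 0.26% of all tested repeats) and 1 without KO replicate 4 (0.118%). It was 0 under the other settings, and the number called lower was 0 under every setting run. Names higher at an unadjusted p under 0.05 numbered 66 under total-count scaling (against 25.4% of all tested repeats) and 18 with the LTR class left out (4.31%). Without single libraries they numbered 22 to 32, against 4.71% to 6.05% of all tested repeats. The median log2 fold change was 0.48 under total-count scaling and 0.16 to 0.19 without single libraries. Its distance from the median of all tested repeats was 0.14 to 0.19 without single libraries and 0.020 with no filter, where the median of all rows was 0.17. The cause of these moves was not tested. The mean log2 difference in share of counts, 0.47, was 0.23 outside the LTR class, 0.32 within the LINE class and 0.43 to 0.51 without single libraries. The mean log2 difference in the ratio to L1Md, 0.50, was 0.43 to 0.55 without single libraries, 0.23 against counts outside the LTR class, 0.27 against rodent L1, 0.22 against L2 and CR1, 0.25 against MLT1 and 0.030 against MIR. That of the summed normalised CPM, 0.16, was 0.47 under total-count scaling and 0.13 to 0.18 without single libraries. Under total-count scaling L1MA6, L1MCc, L1MEg2 and L1MEi turned positive (0.24, 0.040, 0.13 and 0.17). Replicate numbers did not pair the libraries (correlations of deviations from -0.07 to 0.15, with 2 of 6 KO libraries closest to their own number). With a replicate block 0 names were called, against 0.0302% higher and 1.42% lower of all tested repeats. In that setting 25 names were higher at an unadjusted p under 0.05, against 5.25% of all tested repeats. The median log2 fold change of the names was then 0.17. Chosen after seeing the data were the ratios to other old repeats, the counts at unadjusted p and of positive names, the distance between medians and the alternatives for the summed normalised CPM.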
